A study of Mus musculus with 32 samples.

Results

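Polysome-bound mRNA of S100a10 cells was compared between fluoxetine-treated mice that were anxious and fluoxetine-treated mice that were not, with 4 TRAP libraries of Sh + Flx anxious mice and 4 of Sh + Flx mice, chosen by their labels and making up 8 of the 32 libraries of the series. The study profiled S100a10 cells (TRAP, translating ribosome affinity purification) and whole cortex (input) in 4 groups, with group-housed (Gh) and single-housed (Sh) mice beside both Flx groups, and 4 libraries per group and fraction. Every mouse carried Tg(S100a10-EGFP/Rpl10a)ES691Htz, the S100a10 bacTRAP transgene of founder ES691, which places the EGFP-tagged ribosomal protein L10a under S100a10 regulatory elements, so that any cell in which these elements are active contributes RNA. Both groups were adult male mice kept alone since weaning and given fluoxetine (Flx), a serotonin reuptake inhibitor, at 0.167 g/L in drinking water for 21 days according to the labels, and no group here was without the drug. They differed in the open-field test, in which Sh + Flx anxious mice spent less time in the center relative to the periphery and Sh + Flx mice were labeled as normal. The test therefore both defined the groups and preceded the tissue collection, and neither the labels nor the methods give the interval between them. Each library pooled the cortices of 3 mice with hippocampi and striata removed, and p-values measure the spread between these pools only.

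S100a10 encodes p11, an adaptor protein that brings receptors and channels to the cell surface and that marks corticostriatal neurons of layer 5a. Immediate early genes are transcribed within minutes of neuronal firing without new protein synthesis, and their products are mostly transcription factors (Fos, Egr and Nr4a families), synaptic proteins such as Arc, and phosphatases that end the MAP kinase signal. Calcium and cAMP induce many of them through CREB at cAMP response elements, and others through serum response factor. Their RNA decays quickly, so the level in a tissue depends on what the animal experienced shortly before death.

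In TRAP mRNA no gene passed an adjusted p of 0.05 in edgeR with the groups alone in the fit, whereas the 12 lower genes with the smallest p included Maff, Nr4a3, Klf4 and Sik1, members of lists of genes that neuronal activity regulates. In edgeR's quasi-likelihood test with Benjamini-Hochberg adjustment, 0 of 15747 genes were called (0%), with a smallest adjusted p of 0.282. At an unadjusted p under 0.05 there were 1264 genes, of which 642 were higher (4.08% of those tested) and 622 lower (3.95%) in Sh + Flx anxious mice. DESeq2 called 31 of 15730 genes (0.197%), 14 higher and 17 lower. In edgeR with a factor for replicates 1 and 4 against 2 and 3, a grouping taken from the data and not from the labels, 11 of 15747 genes were called (0.0699%). The fit with the groups alone left this grouping out, although input libraries of all 4 groups paired in the same way, as given below. With the replicate number as a block, 10 were called. Both sets held Nr4a1, Nr4a3, Maff, Fosb, Errfi1, Calm2, Tmcc3 and Emd. Statements below that edgeR did not call a gene refer to fits without this factor or block. The libraries of the groups did not overlap for 391 genes with higher values (2.48%) and 337 with lower values (2.14%) in Sh + Flx anxious mice. Levels below are CPM, counts relative to library size scaled by the trimmed mean of M-values over the 8 libraries, in the order of replicates 1 to 4, and fold changes are Sh + Flx anxious over Sh + Flx.

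S100a10 itself was more abundant in TRAP than in input libraries of both groups. On a scale common to all 32 libraries it ranged from 61.0 to 68.9 CPM in TRAP mRNA against 5.94 to 9.18 CPM in input of Sh + Flx anxious mice, and from 39.9 to 67.1 CPM against 5.90 to 8.72 CPM in Sh + Flx mice. The TRAP fraction also held RNA of other cells. The summed level of 16 meningeal fibroblast markers ranged from 3216 to 4633 CPM in the 8 TRAP libraries and from 91.4 to 149 CPM in input, and that of 14 endothelial markers from 238 to 322 CPM against 23.2 to 28.6 CPM. The 10 genes listed as markers of layer 5 intratelencephalic neurons summed to 705 to 1138 CPM in TRAP mRNA and 1066 to 1165 CPM in input. Batf3 was under 0.5 CPM. The list includes Rorb and Fezf2, and how specific its genes are to these neurons was not tested. None of 19 marker lists separated the groups in TRAP mRNA. In these bulk libraries, fewer cells of a type and less RNA per cell cannot be told apart.

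Depth in TRAP was 23571977 to 62317055 counts in genes per library in Sh + Flx anxious mice and 23589590 to 64788703 in Sh + Flx mice (exact 2-sided permutation test, p = 0.8571). Reads outside annotated features made up 28.9% ± 4.09 and 32.8% ± 2.73 (SD, n = 4 each; exact permutation p = 0.2). In each group replicates 2 and 3 were the most alike pair (Pearson r across genes, which are not independent, of 0.9882 in Sh + Flx anxious and 0.9864 in Sh + Flx mice), and for many genes below replicates 1 and 4 stood together on the other side of them. Of all genes tested, 22.1% had both replicates 1 and 4 above replicates 2 and 3 in Sh + Flx anxious mice and 22.2% did so in Sh + Flx mice. In input of all 4 groups, replicates 1 and 4 and replicates 2 and 3 were the most alike pairs. The measure was the mean chi-square per gene between 2 libraries, which is smaller for libraries more alike. It was 10.008 and 5.789 in Sh + Flx anxious mice, against 14.447 or more for other pairs. In Sh + Flx mice it was 5.286 and 5.443, against 13.531 or more. In TRAP of Sh + Flx anxious mice, replicates 1 and 4 (46.341) were less alike than 1 and 2 (37.639). Neither the labels nor the methods say what replicates 1 and 4, or 2 and 3, have in common.

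The Nr4a nuclear receptors, orphan receptors induced by cAMP and calcium, had the lowest median of the activity-regulated lists in Sh + Flx anxious mice, their 3 members having a median log2 fold change of -2.06, beside -0.0018 over all genes. All 3 had an unadjusted p under 0.05 and neither edgeR nor DESeq2 called any. Nr4a2, known as Nurr1 (chromosome 2, 57106830 to 57124003), stood at 68.9, 56.1, 65.8 and 78.5 CPM in Sh + Flx anxious mice, against 431, 90.4, 68.0 and 559 CPM in Sh + Flx mice. The 4 anxious pools lay close together, Sh + Flx replicates 1 and 4 stood several-fold above the rest, and the groups overlapped through Sh + Flx replicate 3. Its log2 fold change was -2.09 ± 0.47 (standard error, n = 4 each), with an adjusted p of 0.326 in edgeR. Nr4a3, known as Nor1 (chromosome 4, 48045078 to 48086447), stood at 13.8, 7.38, 7.17 and 18.4 CPM in Sh + Flx anxious mice, against 68.2, 16.8, 25.5 and 85.2 CPM in Sh + Flx mice. Replicates 1 and 4 were the higher ones in both groups, and the groups overlapped only between anxious replicate 4 and Sh + Flx replicate 2. The log2 fold change of Nr4a3 was -2.06 ± 0.42 (standard error, n = 4 each; edgeR adjusted p = 0.297). Nr4a1, known as Nur77 (chromosome 15, 101253902 to 101274795), stood at 27.7, 8.79, 9.80 and 31.7 CPM in Sh + Flx anxious mice, against 115, 21.3, 21.9 and 87.7 CPM in Sh + Flx mice. Anxious replicates 1 and 4 were above Sh + Flx replicates 2 and 3, so the groups overlapped, and Sh + Flx replicates 1 and 4 were the highest of all. This amounted to a log2 fold change of -1.65 ± 0.49 (standard error, n = 4 each; edgeR adjusted p = 0.481). Without single libraries, the log2 fold changes ranged from -2.43 to -1.54 for Nr4a2, from -2.38 to -1.65 for Nr4a3 and from -1.99 to -1.17 for Nr4a1.

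**Figure D1:**
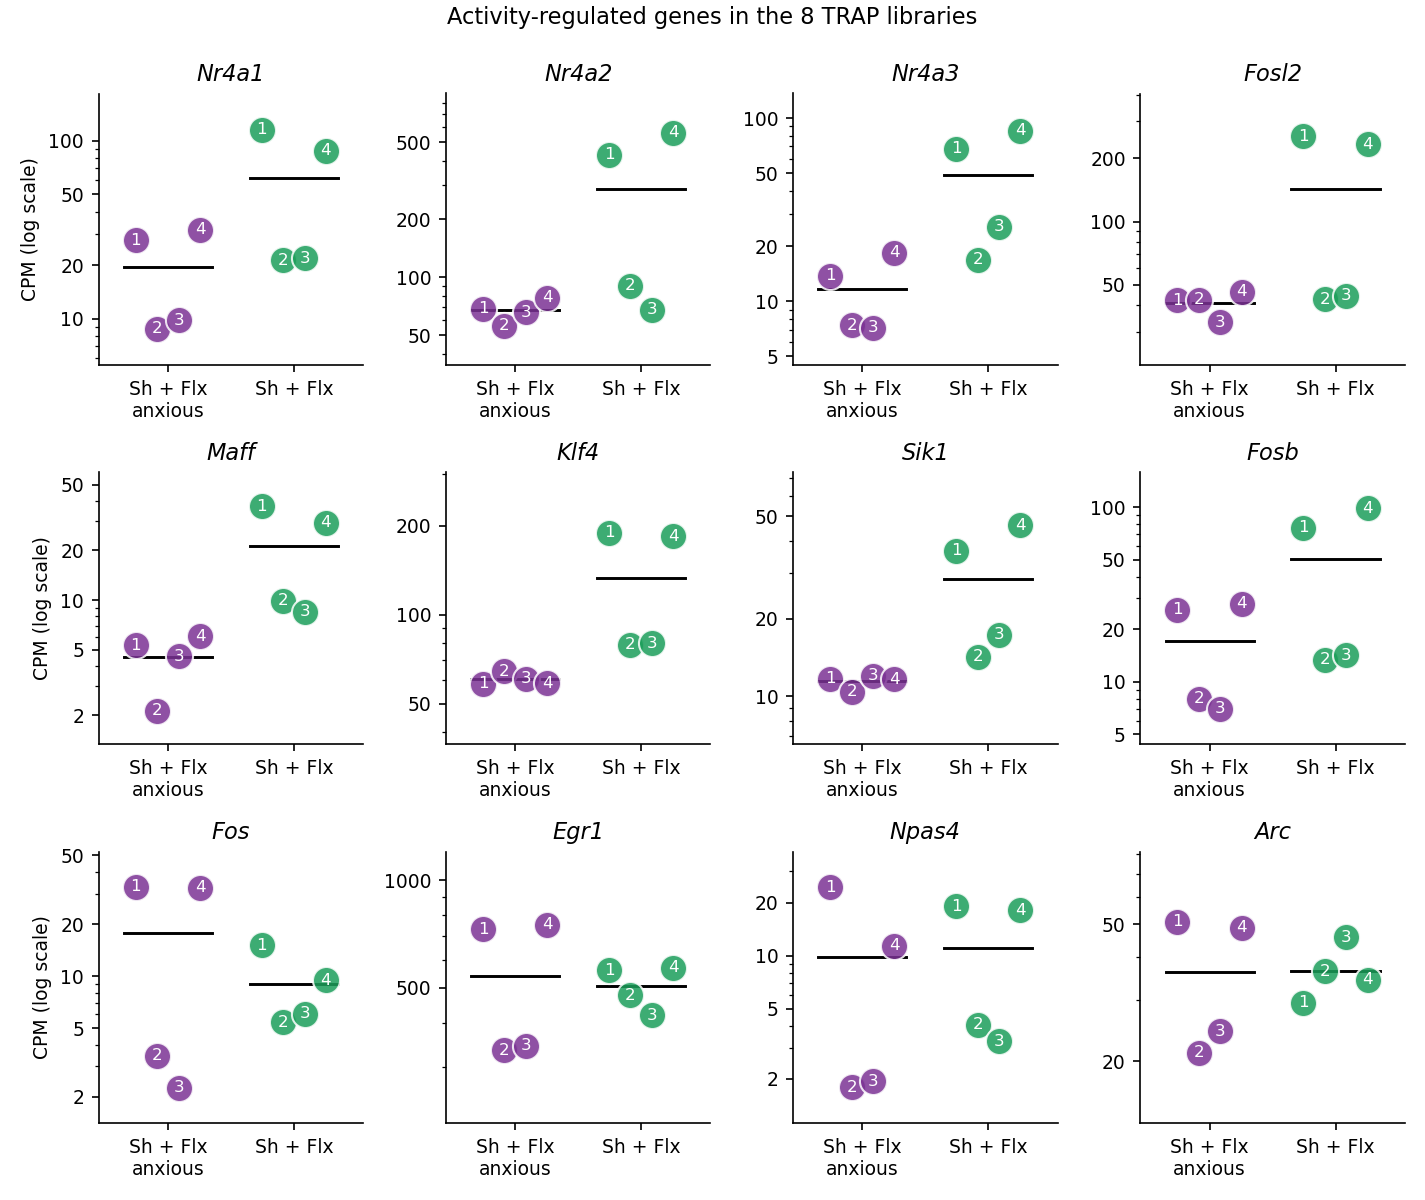
Level of 12 activity-regulated genes (CPM, one panel per gene with its own axis) in each TRAP library of Sh + Flx anxious (left, purple) and Sh + Flx (right, green) mice; numbers mark the replicate and the bar the mean of 4. Sh + Flx replicates 1 and 4 stand apart for Nr4a2 (431 and 559 CPM) and Fosl2 (254 and 233 CPM), whereas for Fos the anxious replicates 1 and 4 are the highest (32.8 and 32.4 CPM).

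The promoters of the Nr4a genes and of Maff, described next, are shown as examples of genes that were high in Sh + Flx replicates 1 and 4 and whose windows hold cAMP response elements, to which CREB binds. They were chosen for these matches, and the window of Fosl2, which was high in the same libraries, held 0. The 250 bases before a start of each gene are given 5′ to 3′ from RefSeq (GRCm38.p6), with TGACG or its reverse complement CGTCA, the core of the element, in capitals. They lie at chr15:101266596-101266845 on the plus strand for Nr4a1, chr2:57124004-57124253 on the minus strand for Nr4a2, chr4:48045055-48045304 on the plus strand for Nr4a3 and chr15:79347270-79347519 on the plus strand for one of 3 starts of Maff.
Nr4a1: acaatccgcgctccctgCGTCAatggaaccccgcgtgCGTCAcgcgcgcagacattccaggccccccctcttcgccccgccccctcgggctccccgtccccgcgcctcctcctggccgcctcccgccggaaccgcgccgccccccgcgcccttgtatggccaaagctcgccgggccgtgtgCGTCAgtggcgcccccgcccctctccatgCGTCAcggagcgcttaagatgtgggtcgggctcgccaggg
Nr4a2: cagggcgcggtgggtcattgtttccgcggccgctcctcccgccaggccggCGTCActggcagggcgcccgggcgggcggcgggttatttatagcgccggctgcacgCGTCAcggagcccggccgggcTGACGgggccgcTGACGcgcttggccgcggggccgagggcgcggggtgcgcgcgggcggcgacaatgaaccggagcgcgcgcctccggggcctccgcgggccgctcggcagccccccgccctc
Nr4a3: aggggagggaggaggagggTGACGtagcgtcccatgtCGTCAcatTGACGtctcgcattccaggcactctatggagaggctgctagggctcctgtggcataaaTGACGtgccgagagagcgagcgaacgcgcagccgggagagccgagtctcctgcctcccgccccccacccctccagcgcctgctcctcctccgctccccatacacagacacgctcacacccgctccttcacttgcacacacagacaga
Maff: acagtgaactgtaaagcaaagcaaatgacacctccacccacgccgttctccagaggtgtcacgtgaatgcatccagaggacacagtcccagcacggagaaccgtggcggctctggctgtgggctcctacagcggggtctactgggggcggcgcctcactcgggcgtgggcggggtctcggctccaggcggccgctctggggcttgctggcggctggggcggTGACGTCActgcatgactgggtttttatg
Each Nr4a window held 4 matches, from 233 to 40 bases before the start in Nr4a1, from 200 to 111 in Nr4a2 and from 231 to 147 in Nr4a3. The Maff window held the full palindrome TGACGTCA, which contains the core on both strands, whereas the windows of its other starts held 0 and 1 matches to the core and 0 palindromes. The Nr4a windows held 0 palindromes. Of 64 activity-regulated genes with at least 5 CPM, 50 had 67 windows of 300 bases in RefSeq, reaching 50 bases past the start. TGACG or CGTCA lay in 50.7% of these windows and in 20.81% of 32851 windows of all genes, and TGACGTCA in 11.9% and 1.79%. The AP-1 motif TGANTCA lay in 1.5% and 7.81%, GCGGGGGCG, to which Egr factors bind, in 7.5% and 2.91%, and the serum response element in 6.0% and 1.63%, each searched on both strands. The 4 windows with the serum response element all belonged to 1 gene, Egr2, and 3 of them overlapped. Elements farther than 250 bases before a start were not searched, and Egr1 was among the genes without a window. These shares describe letters in the windows, and binding was not measured.

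Among the AP-1 factors, dimers of which bind the TRE, Fosl2 and Maff had lower levels in Sh + Flx anxious mice, whereas Fos had a higher mean. Of 12 members, 10 were tested and 0 called by edgeR or DESeq2, 4 had lower values at an unadjusted p under 0.05, and their median log2 fold change was -0.51. Maff, a small Maf protein without a transactivation domain (chromosome 15, 79346621 to 79359078), stood at 5.32, 2.13, 4.56 and 6.03 CPM in Sh + Flx anxious mice, against 37.1, 9.88, 8.46 and 29.5 CPM in Sh + Flx mice. Every anxious pool was below every Sh + Flx pool, and Sh + Flx replicates 1 and 4 were again the highest. For Maff the log2 fold change was -2.22 ± 0.42 (standard error, n = 4 each; edgeR adjusted p = 0.282). Fosl2, known as Fra-2 (chromosome 5, 32136472 to 32157840), stood at 42.1, 42.4, 33.2 and 46.5 CPM in Sh + Flx anxious mice, against 254, 42.7, 44.5 and 233 CPM in Sh + Flx mice. Sh + Flx replicates 2 and 3 lay at the level of the anxious pools, so the difference in means came from Sh + Flx replicates 1 and 4. The log2 fold change of Fosl2 was -1.80 ± 0.44 (standard error, n = 4 each; edgeR adjusted p = 0.392). Fosb, whose stable splice form accumulates with repeated stimulation, stood at 25.8, 7.98, 7.03 and 28.1 CPM in Sh + Flx anxious mice, against 76.1, 13.3, 14.2 and 98.8 CPM in Sh + Flx mice. It was high in replicates 1 and 4 of both groups, and its log2 fold change was -1.55 ± 0.56 (standard error, n = 4 each; edgeR adjusted p = 0.507). Without Sh + Flx replicate 4 it was -0.99. Atf3, a repressor induced by stress, stood at 3.5, 0.555, 0.568 and 3.37 CPM in Sh + Flx anxious mice, against 11, 1.56, 1.38 and 10 CPM in Sh + Flx mice.

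Fos, the founding member of the family and the usual marker of recent firing, followed another order (chromosome 12, 85473890 to 85477274). It stood at 32.8, 3.46, 2.26 and 32.4 CPM in Sh + Flx anxious mice, against 15.1, 5.42, 6.06 and 9.47 CPM in Sh + Flx mice. The anxious pools thus held the 2 highest and the 2 lowest values of the 8. The log2 fold change was 0.99 ± 0.62 (standard error, n = 4 each), with a 95% interval from -0.32 to 2.30 and an adjusted p of 0.725 in edgeR. Without anxious replicate 1 it was 0.51. Fos and Fosl2 therefore differed in which libraries were high: Fos in anxious replicates 1 and 4, and Fosl2 in Sh + Flx replicates 1 and 4.

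Of the Egr, Npas4, Klf and Ier factors, all 17 were tested and 0 called by edgeR or DESeq2, and 4 had lower values at an unadjusted p under 0.05, with a median log2 fold change of -0.12. Klf4, a zinc finger factor (chromosome 4, 55527137 to 55532475), stood at 58.4, 64.4, 60.8 and 58.7 CPM in Sh + Flx anxious mice, against 189, 79.2, 80.1 and 184 CPM in Sh + Flx mice. The anxious pools were nearly equal and all below the Sh + Flx pools, of which replicates 1 and 4 were the highest. For Klf4 the log2 fold change was -1.14 ± 0.23 (standard error, n = 4 each; edgeR adjusted p = 0.307). Klf4 stood at 1.42 to 2.30 CPM in input of Sh + Flx anxious mice and at 1.81 to 3.78 CPM in input of Sh + Flx mice, and Maff at 0.0477 to 0.742 CPM and 0.367 to 1.18 CPM. Both were thus far more abundant in TRAP mRNA, as the meningeal fibroblast markers were, and which cells they came from was not tested. Klf2, a related factor, stood at 10.4, 14.7, 9.59 and 15.3 CPM in Sh + Flx anxious mice, against 14.4, 24.5, 14.3 and 17 CPM in Sh + Flx mice, and here Sh + Flx replicate 2 was the highest. Per1, a clock gene with cAMP response elements, stood at 38.5, 32.4, 31.8 and 32.7 CPM in Sh + Flx anxious mice, against 62.7, 32.6, 43.2 and 65.1 CPM in Sh + Flx mice. Crem, the gene of the cAMP-induced repressor ICER, stood at 35.7, 22.6, 23.0 and 32.5 CPM in Sh + Flx anxious mice, against 46.0, 26.4, 39.5 and 52.0 CPM in Sh + Flx mice. For Per1 and Crem, Sh + Flx replicates 1 and 4 were the highest of the 8 libraries.

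Egr1, Egr2, Egr3 and Npas4, which are widely read as markers of synaptic activity, had groups that overlapped. Egr1, also called Zif268 (chromosome 18, 34861207 to 34864956), stood at 729, 335, 345 and 752 CPM in Sh + Flx anxious mice, against 559.8, 477, 419.6 and 569.7 CPM in Sh + Flx mice. Its anxious pools spanned the Sh + Flx pools on both sides, and the log2 fold change was 0.09 ± 0.22 (standard error, n = 4 each; 95% interval from -0.37 to 0.56). Npas4, a factor induced by calcium influx alone, stood at 24.3, 1.79, 1.93 and 11.4 CPM in Sh + Flx anxious mice, against 19.0, 4.05, 3.27 and 18 CPM in Sh + Flx mice. Replicates 1 and 4 were the higher ones in both groups. Egr2 stood at 20.5, 5.50, 3.47 and 22.4 CPM in Sh + Flx anxious mice, against 17.9, 11.1, 11 and 23.9 CPM in Sh + Flx mice. Egr3 varied less, at 228, 245, 236 and 241 CPM in Sh + Flx anxious mice, against 285, 182, 206 and 291 CPM in Sh + Flx mice. None of these 4 genes had an unadjusted p under 0.05, and the sign of each difference depended on which library was left out.

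Synaptic and secreted products of activity gave 4 genes with lower and 3 with higher values at an unadjusted p under 0.05, and 0 called by edgeR or DESeq2, of 29 tested of 30, with a median log2 fold change of -0.05. Sik1, the kinase that phosphorylates CREB coactivators and so limits the response to cAMP (chromosome 17, 31844248 to 31855804), stood at 11.7, 10.5, 12 and 11.7 CPM in Sh + Flx anxious mice, against 36.7, 14.3, 17.3 and 46.1 CPM in Sh + Flx mice. All anxious pools were below all Sh + Flx pools, with Sh + Flx replicates 1 and 4 the highest. For Sik1 the log2 fold change was -1.32 ± 0.29 (standard error, n = 4 each; edgeR adjusted p = 0.307). Gadd45b, which takes part in DNA demethylation, stood at 3.95, 3.07, 4.17 and 3.35 CPM in Sh + Flx anxious mice, against 7.40, 5.09, 5.84 and 6.15 CPM in Sh + Flx mice, again without overlap. Here the Sh + Flx pools were close together, and the log2 fold change was -0.75 ± 0.27 (standard error, n = 4 each; edgeR adjusted p = 0.507). Ptgs2, the inducible cyclooxygenase, stood at 25.1, 15, 16.1 and 22.0 CPM in Sh + Flx anxious mice, against 47.5, 15.4, 9.98 and 42.7 CPM in Sh + Flx mice. Coq10b, which encodes a mitochondrial protein that binds coenzyme Q, stood at 49.8, 45.9, 39.0 and 55.4 CPM in Sh + Flx anxious mice, against 98.8, 48.3, 46.5 and 88.6 CPM in Sh + Flx mice. In both, Sh + Flx replicates 1 and 4 were the highest libraries and the other pools overlapped.

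Inhba and Nrn1, secreted or surface-bound proteins that act on synapses, had higher means in Sh + Flx anxious mice, and neither was called. Inhba, a subunit of activin, stood at 43.3, 35.7, 36.2 and 40.9 CPM in Sh + Flx anxious mice, against 33.1, 28.2, 31.7 and 35.5 CPM in Sh + Flx mice. All anxious pools were above all Sh + Flx pools, although the highest Sh + Flx pool and the lowest anxious pool nearly touched. This gave a log2 fold change of 0.28 ± 0.13 (standard error, n = 4 each; edgeR adjusted p = 0.622). Nrn1, or neuritin, stood at 229, 168, 156 and 227 CPM in Sh + Flx anxious mice, against 159, 164, 165 and 133 CPM in Sh + Flx mice, with anxious replicates 1 and 4 highest and anxious replicate 3 within the range of Sh + Flx mice. Arc, which drives the endocytosis of AMPA receptors, stood at 50.8, 21.1, 24.4 and 48.9 CPM in Sh + Flx anxious mice, against 29.6, 36.5, 45.8 and 34.4 CPM in Sh + Flx mice. Like Fos and Egr1, it was highest in anxious replicates 1 and 4 and lowest in anxious replicates 2 and 3. Bdnf, a neurotrophin of cortical pyramidal neurons, stood at 23.3, 22.2, 25.0 and 25.4 CPM in Sh + Flx anxious mice, against 24.2, 24.7, 23.3 and 27.1 CPM in Sh + Flx mice. The groups differed by a log2 fold change of -0.05 ± 0.14 (standard error, n = 4 each; 95% interval from -0.34 to 0.24).

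The MAP kinase phosphatases and feedback inhibitors, all 19 of them tested, 0 called by edgeR or DESeq2 and 1 lower at an unadjusted p under 0.05, had a median log2 fold change of 0.01. Errfi1, an inhibitor of the EGF receptor, stood at 132, 83.3, 92.2 and 116 CPM in Sh + Flx anxious mice, against 237, 131, 122 and 196 CPM in Sh + Flx mice. Its groups overlapped through anxious replicate 1, and the log2 fold change was -0.69 ± 0.19 (standard error, n = 4 each; edgeR adjusted p = 0.474). Dusp1, the nuclear phosphatase of the kinases, stood at 96.3, 46.5, 57.1 and 108 CPM in Sh + Flx anxious mice, against 65.1, 73.3, 68.8 and 88.0 CPM in Sh + Flx mice. Dusp6, the cytoplasmic phosphatase of ERK, stood at 54.9, 26.2, 27.9 and 65.2 CPM in Sh + Flx anxious mice, against 58.5, 44.4, 37.9 and 49.4 CPM in Sh + Flx mice. Both were lowest in anxious replicates 2 and 3.

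Over these lists together, 81 genes were in the tables, 78 were tested and 3 had too few counts. At an unadjusted p under 0.05, 3 had higher and 16 lower values in Sh + Flx anxious mice, beside 4.08% and 3.95% of all genes, and the libraries did not overlap for 2 with higher and 5 with lower values, beside 2.48% and 2.14% of all genes. Their median log2 fold change was -0.12 beside -0.0018 over all genes, and 9 had a log2 fold change under -1 whereas 0 had one over 1. Replicates 1 and 4 both stood above replicates 2 and 3 for 52.6% of them in Sh + Flx anxious mice and for 57.7% in Sh + Flx mice, beside 22.1% and 22.2% of all genes. In both groups this held for 27 of the 78 tested, beside 890 of all 15747 genes. Other lists shared this split within one group, such as 16 of 24 sodium and calcium channel genes and 15 of 23 glutamate receptor genes in Sh + Flx mice, and 42 of 81 respiratory chain genes in Sh + Flx anxious mice. The spread between pools of a group was therefore wide for some of these genes. Among 11236 genes at 5 CPM or more, the median SD of log2 CPM was 0.20 in Sh + Flx anxious mice and 0.21 in Sh + Flx mice. For Fos it was 2.05 in Sh + Flx anxious mice and 0.67 in Sh + Flx mice, and for Fosl2 0.21 and 1.43.

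**Figure D2:**
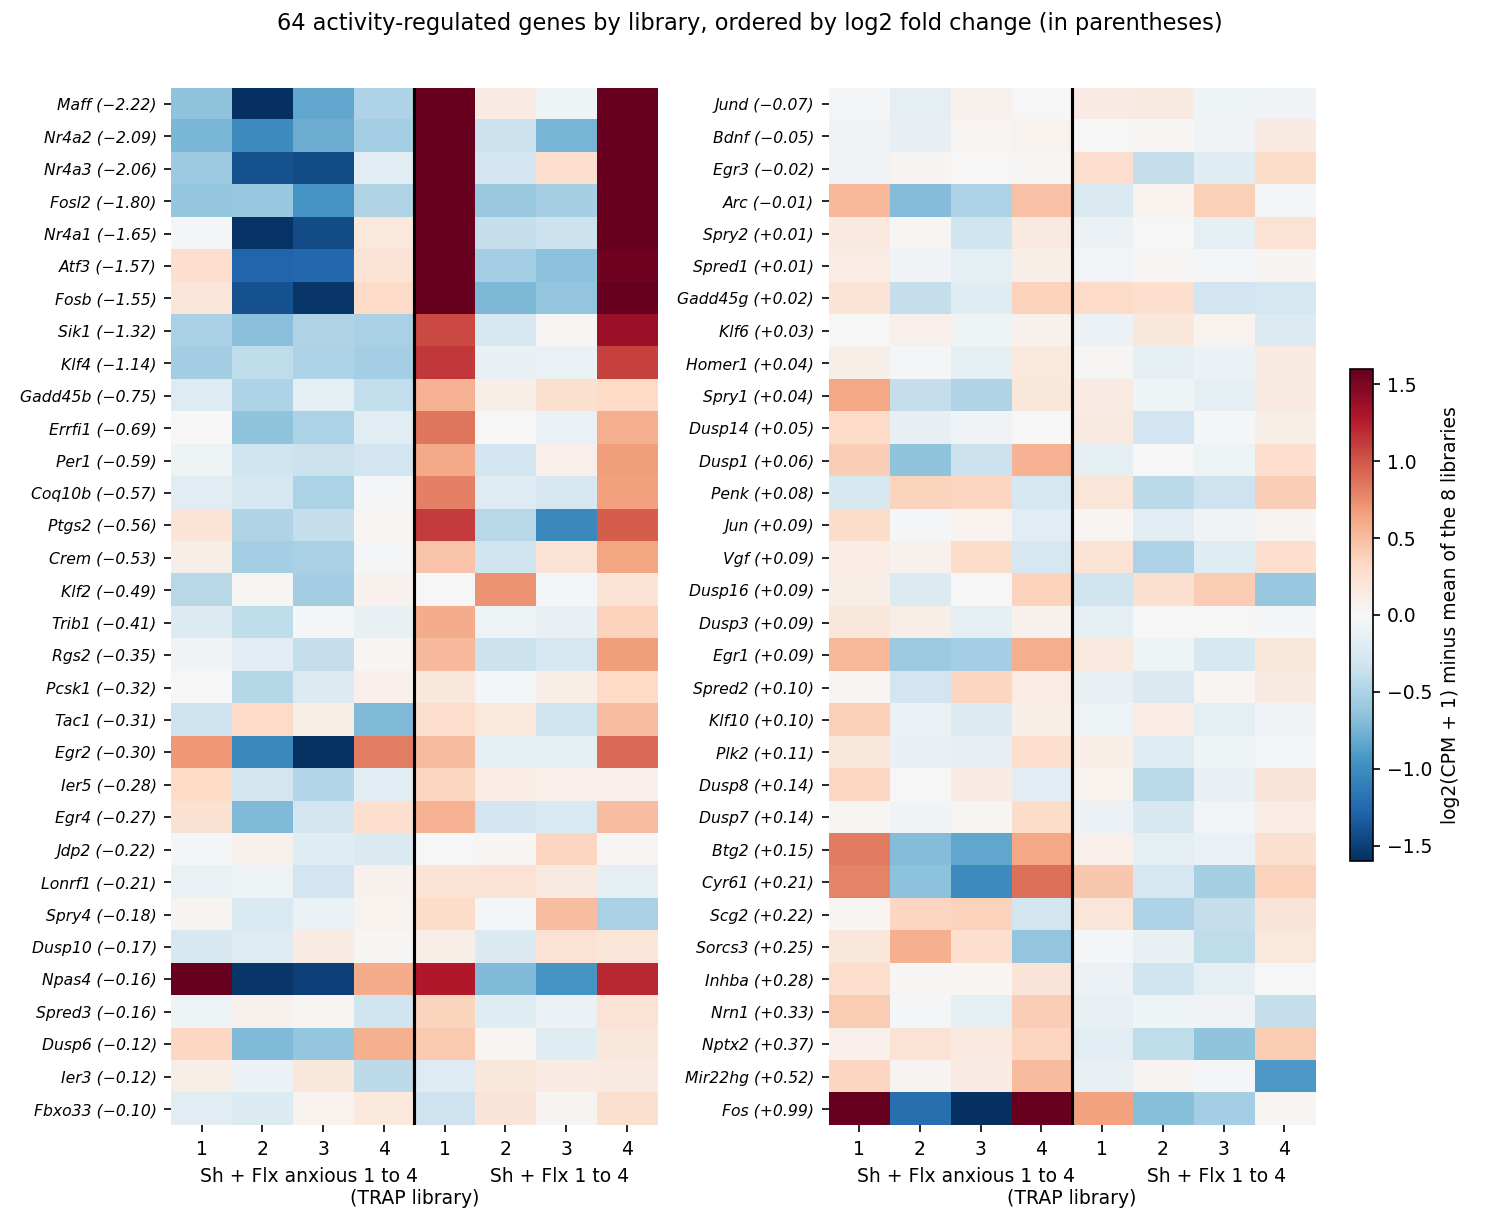
Level of 64 activity-regulated genes with at least 5 CPM in the 4 Sh + Flx anxious (left of each black line) and 4 Sh + Flx (right) TRAP libraries, as log2(CPM + 1) minus the mean of the 8 libraries, with colors capped at 1.6 on either side and the fitted log2 fold change in parentheses. The genes at the top, from Maff (-2.22) to Klf4 (-1.14), are red in Sh + Flx replicates 1 and 4, whereas Fos (0.99), Btg2 (0.15) and Egr1 (0.09) are red in anxious replicates 1 and 4.

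Markers of other cells also split by replicate, and not always in the same way in both groups. The 14 astrocyte markers summed to 2568, 3964, 3966 and 2900 CPM in Sh + Flx anxious mice, against 3463, 2722, 2845 and 3593 CPM in Sh + Flx mice. The 14 oligodendrocyte markers summed to 884, 1474, 1459 and 1067 CPM in Sh + Flx anxious mice, against 1401, 1169, 1187 and 1492 CPM in Sh + Flx mice. Replicates 1 and 4 were thus low in astrocyte and oligodendrocyte markers among the anxious pools and high among the Sh + Flx pools. The 9 markers of oligodendrocyte precursors were lowest in replicates 1 and 4 of both groups. They summed to 229, 311, 322 and 258 CPM in Sh + Flx anxious mice, against 237, 314, 296 and 271 CPM in Sh + Flx mice. The 16 meningeal fibroblast markers summed to 3429, 4634, 4960 and 4054 CPM in Sh + Flx anxious mice, against 3684, 4520, 4759 and 4316 CPM in Sh + Flx mice, and were lowest in replicates 1 and 4 of both groups. Reads outside features were 31.6%, 25.2%, 25.6% and 33.2% in Sh + Flx anxious mice, against 34.3%, 30.0%, 31.0% and 35.8% in Sh + Flx mice, highest in replicates 1 and 4 of both. The part of these measures in the levels of the activity-regulated genes was not tested.

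In whole cortex the same comparison gave calls, and Fosl2 and Nr4a1 were among them. In input, edgeR called 34 of 15096 genes (0.225%), 18 higher and 16 lower in Sh + Flx anxious mice, and DESeq2 called 120. Leaving out single libraries left 9 to 25 calls, with 9 without any one of the Sh + Flx replicates 1 to 4, 16 without anxious replicate 1 and 14 without anxious replicate 4. Fosl2 in input stood at 36.1, 30.2, 28.9 and 39.7 CPM in Sh + Flx anxious mice, against 59.8, 53.5, 51.1 and 56.0 CPM in Sh + Flx mice. No pool overlapped, and Sh + Flx replicates 1 and 4 did not stand apart as they did in TRAP mRNA. Its log2 fold change in input was -0.70 ± 0.09 (standard error, n = 4 each; edgeR adjusted p = 0.0015). Nr4a1 in input stood at 19.2, 13.3, 12.6 and 20.6 CPM in Sh + Flx anxious mice, against 24.9, 31.0, 29.9 and 25.3 CPM in Sh + Flx mice. The groups did not overlap, and its log2 fold change was -0.75 ± 0.14 (standard error, n = 4 each; edgeR adjusted p = 0.021). The call of Nr4a1 was lost without Sh + Flx replicate 2 (edgeR adjusted p = 0.0892), without Sh + Flx replicate 3 (0.0893) and without anxious replicate 2 (0.0537). Nr4a2, Nr4a3 and Egr1 were also below Sh + Flx in every anxious input pool, with log2 fold changes of -0.29, -0.55 and -0.46 and edgeR adjusted p of 0.07, 0.289 and 0.097.

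Of 63 activity-regulated genes measured in both fractions, 35 had log2 fold changes below 0 in TRAP mRNA, 46 in input and 30 in both. Of all 15747 genes tested in TRAP mRNA, 7916 were below 0, and the median over all genes in input was 0.0038. Genes below 0 in both fractions were not counted over all genes. Fos had opposite signs in TRAP mRNA and input. It stood at 16.5, 3.48, 5.46 and 15.9 CPM in input of Sh + Flx anxious mice, against 16.9, 11.5, 11.7 and 16.8 CPM in input of Sh + Flx mice. Replicates 1 and 4 of both groups were close in input, and anxious replicates 2 and 3 were low, as they were in TRAP mRNA. The log2 fold change of Fos in input was -0.43 ± 0.31 (standard error, n = 4 each; edgeR adjusted p = 0.744). The change in TRAP mRNA minus that in input was tested as an interaction, and edgeR called 0 of 16143 genes (0%), with 1020 at an unadjusted p under 0.05, whereas DESeq2 called 5. For Fosl2 this difference was -1.09 ± 0.53 (standard error; edgeR adjusted p = 0.797) and for Nr4a2 -1.79 ± 0.56 (standard error; edgeR adjusted p = 0.636), so that a larger change in TRAP mRNA than in whole cortex was not shown.

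**Figure D3:**
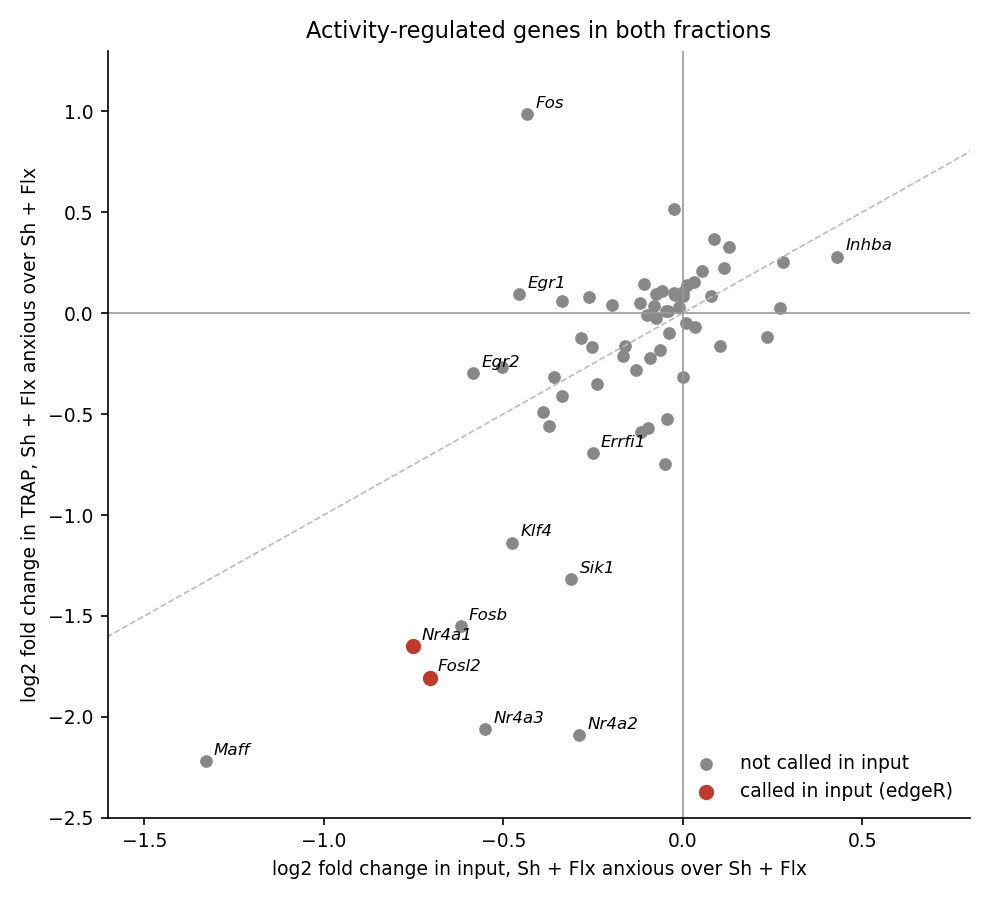
Log2 fold change, Sh + Flx anxious over Sh + Flx, in TRAP mRNA (vertical) and input (horizontal) for 63 activity-regulated genes; the dashed line marks equal values and red points the genes called in input. Fosl2 (-1.80 in TRAP, -0.70 in input) and Nr4a1 (-1.65 and -0.75) are the called genes, and Fos lies at the upper left with 0.99 and -0.43.

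Set beside the groups without the drug, on the scale common to all 32 libraries, the anxious pools lay within or below the range of Sh and Gh mice for Fosl2 and Nr4a2 in TRAP mRNA, and below it in input. Fosl2 in TRAP mRNA ranged from 31.0 to 44.2 CPM in Sh + Flx anxious, 40.3 to 234 in Sh + Flx, 46.8 to 53.6 in Sh and 42.6 to 49.9 in Gh mice. In input it ranged from 30.8 to 42.5 CPM in Sh + Flx anxious mice, 54.5 to 63.9 in Sh + Flx, 50.7 to 66.6 in Sh and 50.8 to 70.6 in Gh mice. The input of Sh + Flx anxious mice was thus the lowest group for Fosl2, without overlap, as it was for Nr4a2. This did not hold for Nr4a1, which ranged from 13.4 to 22.1 CPM in input of Sh + Flx anxious mice. Sh input replicates 1 and 4 (18.6 and 16.4 CPM) lay within that range, and Sh input replicates 2 and 3 were at 48.2 CPM or more. Nr4a1 in input was at 26.5 CPM or more in Sh + Flx mice and 23.4 CPM or more in Gh mice. Nr4a2 in TRAP mRNA ranged from 51.5 to 74.6 CPM in Sh + Flx anxious, 64.5 to 524 in Sh + Flx, 61.8 to 155 in Sh and 55.9 to 80.1 in Gh mice. In input it ranged from 71.8 to 82.5 CPM in Sh + Flx anxious mice, 89.2 to 97.6 in Sh + Flx, 93.0 to 108 in Sh and 96.5 to 106 in Gh mice. Maff in TRAP mRNA ranged from 1.96 to 5.73 CPM in Sh + Flx anxious, 8.04 to 34.3 in Sh + Flx, 1.81 to 4.01 in Sh and 2.13 to 5.04 in Gh mice, so that Sh + Flx was the group that stood apart. Sh and Gh entered no test here, and Gh TRAP replicates 2 and 3 agreed within sampling noise and may be 1 library. Sh TRAP replicates 1 and 4 were also close to each other (mean chi-square per gene 2.17, against 64.8 or more for the other Sh pairs), so that the ranges of Sh and Gh mice may rest on fewer than 4 independent libraries each. Sh TRAP replicates 2 and 3 had 50.3% and 58.6% of reads outside features, against 38.8% and 39.0% in replicates 1 and 4. For Nr4a2 they stood at 106 and 155 CPM, against 63.4 and 61.8 CPM in replicates 1 and 4.

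**Figure D4:**
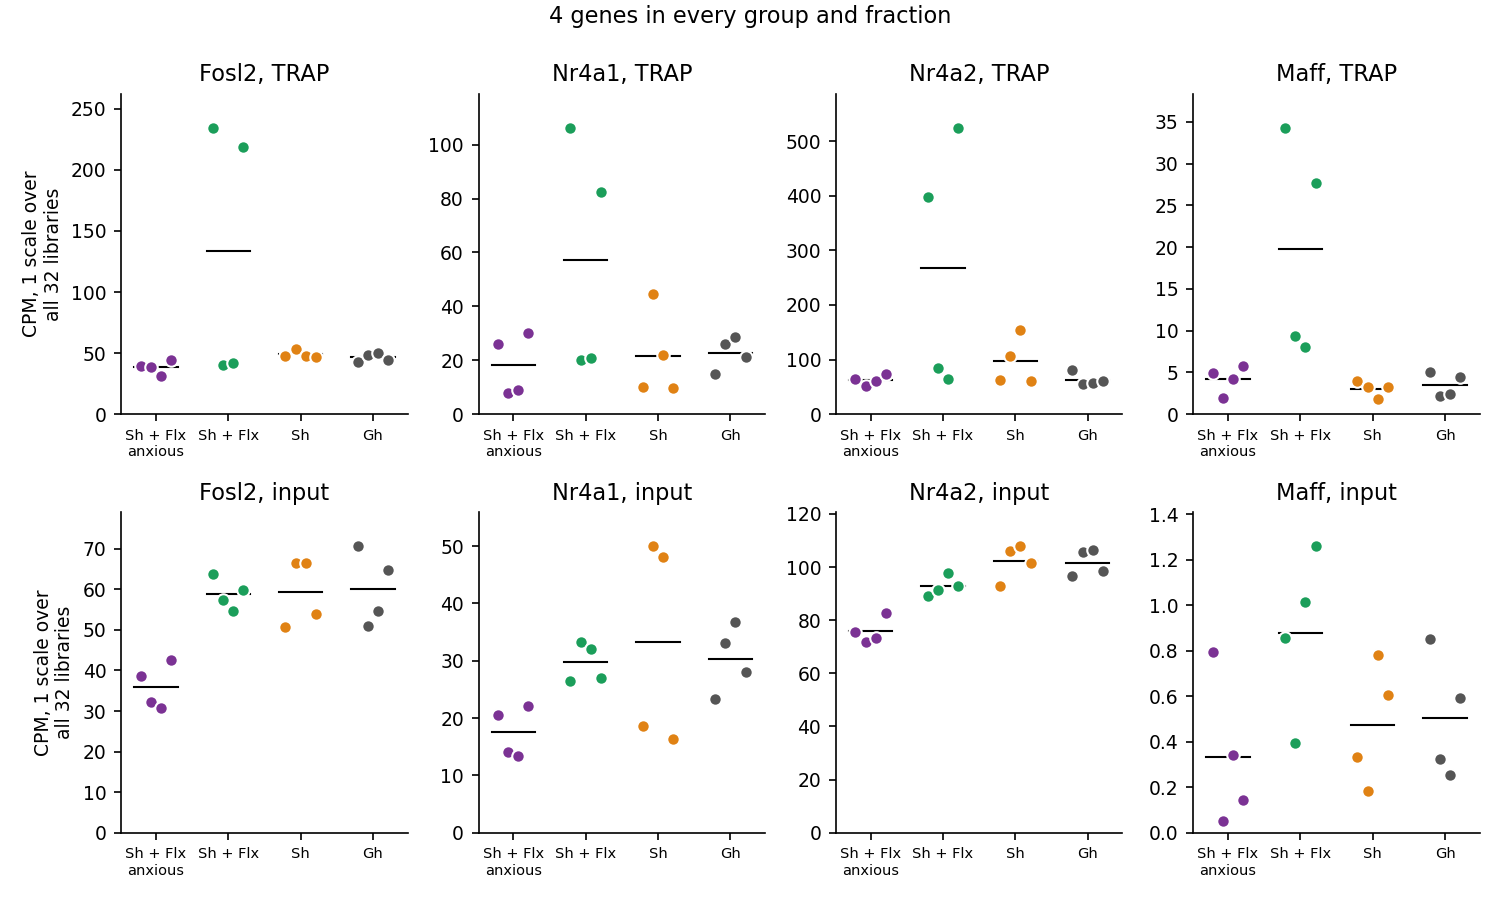
Level of Fosl2, Nr4a1, Nr4a2 and Maff (CPM on a scale common to 32 libraries) in the 4 libraries of each group, left to right Sh + Flx anxious, Sh + Flx, Sh and Gh, in TRAP (top) and input (bottom). Within a group the dots run from replicate 1 to 4, left to right, and the bar marks the mean. In TRAP mRNA Sh + Flx replicates 1 and 4 stand above the rest for Fosl2 (234 and 218 CPM) and Nr4a2 (398 and 524 CPM), and in input all anxious libraries lie at or below 42.5 CPM for Fosl2.

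Outside the activity-regulated genes, the smallest p belonged to Calm2, one of the genes that encode calmodulin, the calcium sensor of the cell (chromosome 17, 87433401 to 87446935). It stood at 5749, 5712, 5970.1 and 7221 CPM in Sh + Flx anxious mice, against 4392, 4217, 4389.8 and 4549 CPM in Sh + Flx mice. All anxious pools were above all Sh + Flx pools, with anxious replicate 4 the highest. The log2 fold change was 0.49 ± 0.09 (standard error, n = 4 each), with an edgeR adjusted p of 0.282 and a DESeq2 adjusted p of 0.00115, and over all alternatives the adjusted p ranged from 0.00115 to 0.997. In input Calm2 stood at 5565, 4390.4, 4720.2 and 5105 CPM in Sh + Flx anxious mice, against 5085, 5091, 5196 and 5289 CPM in Sh + Flx mice. Those groups overlapped, and the TRAP change minus the input change was 0.56 ± 0.11 on the log2 scale (standard error; edgeR adjusted p = 0.234). Several of the most abundant TRAP mRNAs leaned the same way, with log2 fold changes of 0.37 for Snap25 and 0.40 for Vsnl1, and the 10 most abundant genes took 9.26% to 9.48% of counts in Sh + Flx anxious mice and 7.64% to 8.81% in Sh + Flx mice. Kalrn, also among these 10, had a log2 fold change of -0.37.

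Other genes with higher values included Efhd2, Hpca, Prkaca and Chga. Efhd2, or swiprosin-1, a calcium-binding protein of the cytoskeleton, stood at 156, 139.6, 141 and 164 CPM in Sh + Flx anxious mice, against 109, 99.1, 113 and 102 CPM in Sh + Flx mice. Hpca encodes hippocalcin, a neuronal calcium sensor, and stood at 389.6, 317, 369 and 358 CPM in Sh + Flx anxious mice, against 294, 219.6, 259.5 and 272 CPM in Sh + Flx mice. Prkaca, the catalytic subunit of protein kinase A, stood at 166, 174, 191 and 183 CPM in Sh + Flx anxious mice, against 138, 119, 128 and 144 CPM in Sh + Flx mice. None of these overlapped, and DESeq2 called all of them while edgeR did not, with log2 fold changes of 0.51 ± 0.10 for Efhd2, 0.46 ± 0.11 for Hpca and 0.43 ± 0.10 for Prkaca (standard errors, n = 4 each). Of 31 genes of cAMP, protein kinase A and CREB signaling tested, DESeq2 called 2, beside 0.197% of all genes. These were Prkaca with higher values and Akap12, a scaffold of the kinase, with lower ones. Akap12 stood at 395, 414, 417 and 351 CPM in Sh + Flx anxious mice, against 448, 541, 562 and 502 CPM in Sh + Flx mice. On the scale common to all 32 libraries, its input ranged from 29.7 to 37.5 CPM in Sh + Flx anxious and 29.1 to 36.5 in Sh + Flx mice. Akap12 was thus far more abundant in TRAP mRNA, and which cells it came from was not tested. The median log2 fold change of the list of cAMP, protein kinase A and CREB signaling was 0.02. Chga encodes chromogranin A of dense-core vesicles and stood at 38.6, 28.2, 32.8 and 36.3 CPM in Sh + Flx anxious mice, against 27.8, 15.7, 17.5 and 18.2 CPM in Sh + Flx mice. In input it stood at 36.5, 34, 36.7 and 40.9 CPM in Sh + Flx anxious mice, against 25.0, 30.0, 28.4 and 27.7 CPM in Sh + Flx mice. Its log2 fold change was 0.78 ± 0.18 in TRAP mRNA (edgeR adjusted p = 0.33) and 0.41 ± 0.08 in input (edgeR adjusted p = 0.0467; standard errors, n = 4 each), and the call in input was lost on leaving out any single library except anxious replicate 2. Ccdc42 had the largest log2 fold change of the 24 genes with the smallest p, 3.68 ± 0.80 (standard error), and rested on 47, 13, 50 and 66 counts in Sh + Flx anxious mice, against 2, 2, 7 and 2 counts in Sh + Flx mice.

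Genes with lower values included the cytoskeletal gene Tpm4 and the membrane genes Tmcc3 and Emd. Tmcc3, a coiled-coil membrane protein (chromosome 10, 94311682 to 94590954), stood at 90.8, 59.7, 64.8 and 69.3 CPM in Sh + Flx anxious mice, against 168, 99.2, 107 and 164 CPM in Sh + Flx mice. It did not overlap and was highest in Sh + Flx replicates 1 and 4, as Nr4a2 was. Tpm4, a tropomyosin, stood at 582, 547, 599 and 676 CPM in Sh + Flx anxious mice, against 757, 818, 841 and 829 CPM in Sh + Flx mice. The pools of Tpm4 were close together within each group and did not overlap, and DESeq2 called both genes while edgeR did not. The log2 fold changes were -0.92 ± 0.17 for Tmcc3 and -0.43 ± 0.09 for Tpm4 (standard errors, n = 4 each). Tpm4 stood at 28.4 to 37.6 CPM in input of Sh + Flx anxious mice and 35.2 to 41.8 CPM in input of Sh + Flx mice, so that it too was far more abundant in TRAP mRNA. Emd, which encodes emerin of the nuclear envelope, stood at 71.4, 53.8, 45.9 and 71.8 CPM in Sh + Flx anxious mice, against 140.3, 85.5, 80 and 130.4 CPM in Sh + Flx mice, without overlap. Aldh2, a mitochondrial aldehyde dehydrogenase, stood at 30.2, 36.7, 36 and 31.7 CPM in Sh + Flx anxious mice, against 38.9, 65.4, 59.3 and 54.2 CPM in Sh + Flx mice, also without overlap. Dcdc2a, which encodes a doublecortin-domain protein of microtubules, stood at 118, 135, 117 and 121 CPM in Sh + Flx anxious mice, against 154, 225, 205 and 168 CPM in Sh + Flx mice. Within Sh + Flx mice, Emd was highest in replicates 1 and 4, whereas Aldh2 and Dcdc2a were lowest there.

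**Figure D5:**
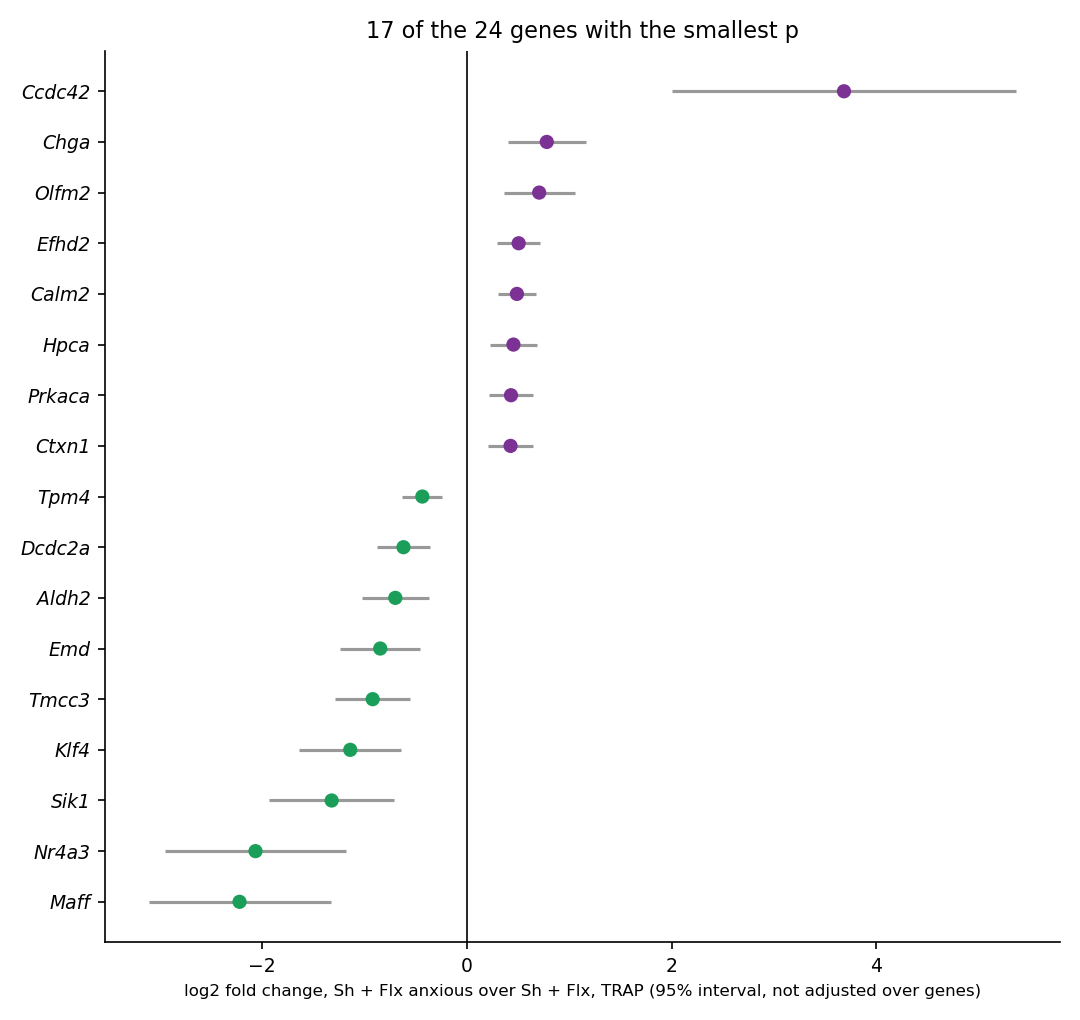
Log2 fold change in TRAP mRNA, Sh + Flx anxious over Sh + Flx, with its 95% interval, for 17 of the 24 genes with the smallest p, 8 higher and 9 lower; no gene passed an adjusted p of 0.05 in edgeR. Higher genes (purple) run from Ctxn1 (0.43) to Ccdc42 (3.68), and lower genes (green) from Tpm4 (-0.43) to Maff (-2.22).

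The genes the study followed for serotonin and G protein signaling were not called. S100a10 stood at 65.0, 73.4, 73.7 and 72.3 CPM in Sh + Flx anxious mice, against 50, 67.8, 70.6 and 42.5 CPM in Sh + Flx mice. The Sh + Flx replicates 1 and 4 were the lowest, and its log2 fold change was 0.30 ± 0.15 (standard error, n = 4 each; edgeR adjusted p = 0.636). Htr2a, the gene of the 5-HT2A receptor, stood at 33.9, 21.0, 20.6 and 28.9 CPM in Sh + Flx anxious mice, against 26.9, 18.3, 20.1 and 21.5 CPM in Sh + Flx mice. Htr1a, that of the 5-HT1A receptor, stood at 14.1, 13.3, 10.5 and 8.68 CPM in Sh + Flx anxious mice, against 12.2, 9.17, 8.72 and 11.3 CPM in Sh + Flx mice. Both overlapped between the groups, with log2 fold changes of 0.27 (95% interval from -0.12 to 0.66) and 0.17 (-0.28 to 0.62). Htr4, which encodes a receptor coupled to cAMP, was at 1.14 to 2.41 CPM in Sh + Flx anxious mice and 0.594 to 1.67 CPM in Sh + Flx mice. Of 12 serotonin receptor and transporter genes tested, 9 had values above 0 and 0 an unadjusted p under 0.05, with a median log2 fold change of 0.23. Erbb4, a neuregulin receptor, stood at 17.5, 19.7, 21.8 and 17.2 CPM in Sh + Flx anxious mice, against 12.9, 20.2, 13.4 and 18.2 CPM in Sh + Flx mice. Gng3, a G protein gamma subunit, stood at 348, 280.1, 328 and 394 CPM in Sh + Flx anxious mice, against 266, 269, 278 and 299.8 CPM in Sh + Flx mice, a log2 fold change of 0.28 ± 0.11 (standard error, n = 4 each; edgeR adjusted p = 0.547). Ryr1, a calcium release channel, was at 1.64 CPM or less in Sh + Flx anxious mice and at 1.47 to 3.34 CPM in Sh + Flx mice. Of 27 genes of Gq signaling and calcium release, 0 had higher and 5 lower values at an unadjusted p under 0.05, beside 4.08% and 3.95% of all genes, among them Itpr1, the inositol trisphosphate receptor. It stood at 399, 377, 385 and 344 CPM in Sh + Flx anxious mice, against 453, 424, 434 and 505 CPM in Sh + Flx mice, without overlap, and its log2 fold change was -0.27 ± 0.09 (standard error, n = 4 each; edgeR adjusted p = 0.507).

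In some other lists most members leaned to one side in TRAP mRNA, although edgeR and DESeq2 called 0 of them. Of 81 genes of the respiratory chain and ATP synthase tested, 60 had log2 fold changes above 0, with a median of 0.10 beside -0.0018 over all genes. At an unadjusted p under 0.05, 10 had higher and 0 lower values, beside 4.08% and 3.95% of all genes. Anxious replicates 1 and 4 both stood above anxious replicates 2 and 3 for 42 of the 81, and the summed level of the list overlapped between the groups. Among them, Atp5g2, the c subunit of ATP synthase, stood at 18.2, 23.6, 18.2 and 24.4 CPM in Sh + Flx anxious mice, against 14.6, 14.1, 16.3 and 11.2 CPM in Sh + Flx mice. Of 15 GABA receptor genes tested, 13 were above 0, with a median of 0.20. Gabbr1, a subunit of the metabotropic GABA receptor, stood at 172, 183, 182 and 183 CPM in Sh + Flx anxious mice, against 148, 114, 133 and 158 CPM in Sh + Flx mice, without overlap. Of 19 interferon and cytokine response genes tested, 16 were below 0, with a median of -0.25, and 3 had lower values at an unadjusted p under 0.05, beside 3.95% of all genes. The summed level of all 22 genes of the list was 663, 623, 659.5 and 716 CPM in Sh + Flx anxious mice, against 604, 892, 849.6 and 616 CPM in Sh + Flx mice, so that Sh + Flx replicates 2 and 3 were the highest. The 14 endothelial markers, of which 10 were below 0 with a median of -0.23, summed to 297, 323, 335 and 306 CPM in Sh + Flx anxious mice, against 258, 335, 339 and 282 CPM in Sh + Flx mice, and their part in the interferon genes was not tested. Ifi27, an interferon-induced gene, stood at 29.3, 33.4, 32.5 and 27.7 CPM in Sh + Flx anxious mice, against 39.6, 44.2, 37.8 and 33.9 CPM in Sh + Flx mice. Of 14 oligodendrocyte markers, 10 were below 0 in TRAP mRNA, with a median of -0.08. In input their median was -0.20 with 2 called lower, Mobp and Cnp, beside 0.225% of all input genes called. Other marker lists also shifted in input. The median was -0.33 for striatal spiny neurons, with 1 called lower, -0.24 for thalamic neurons and -0.47 for choroid plexus and ependyma. It was 0.19 for microglia and macrophages. Mobp, a myelin protein gene, stood in input at 79.3, 98.4, 105 and 85.1 CPM in Sh + Flx anxious mice, against 146, 122, 127 and 156 CPM in Sh + Flx mice (log2 fold change -0.58 ± 0.09, standard error, n = 4 each; edgeR adjusted p = 0.0036). The call of Cnp (edgeR adjusted p = 0.0397) was lost whichever library was left out.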

How the data were processed

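RNA of S100a10 cells (TRAP) and whole cortex (input) was amplified by the authors with a kit that keeps no strand information (Ovation RNA-Seq V2), sequenced as paired 75-bp reads and aligned to mm10 with TopHat2 2.0.11 with UCSC gene models. The authors deposited 1 table of unnormalized gene counts per library. No source used here names the program that counted, so genes that overlap on opposite strands and near-identical copies such as the calmodulin genes are uncertain. Each table ends with 5 lines for reads outside genes, which entered neither library sizes nor tests. Tables with the authors' mean FPKM, fold changes and p-values were not used.

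Counts of the 4 Sh + Flx anxious and 4 Sh + Flx libraries of a fraction were filtered with filterByExpr, scaled by TMM and tested with glmQLFit and glmQLFTest (edgeR 4.0.16, R 4.3.3), with Benjamini-Hochberg adjustment over all genes kept and a threshold of 0.05. Both fractions were fitted together for the interaction. Standard errors and 95% intervals are those of single genes in these fits. Median biological coefficients of variation were 0.202 in TRAP, 0.113 in input and 0.171 together. Alternatives were DESeq2 1.42.0, other size factors and filters, all TRAP groups in one fit, a replicate block, pairs as a factor or summed, and each library left out. The procedure was tested on counts simulated from the TRAP fit. There edgeR recovered 29.9% of 1.5-fold, 53.7% of 2-fold and 81.8% of 3-fold changes. Of its 118 calls 6.78% were false, against 15.33% of 150 calls by DESeq2. The simulated counts were drawn independently for each library and held no shared split of replicates 1 and 4 from 2 and 3. These rates may therefore not hold for the real libraries. Depth was 23571977 to 64788703 counts per TRAP library, and no pair within these groups agreed within sampling noise (mean chi-square per gene at least 15.3). A test over libraries of 4 against 4 cannot go below an exact p of 0.0286.

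Genes named are S100a10, the members of 5 activity-regulated lists with at least 5 CPM in a group, the 12 genes per direction with the smallest p, up to 4 members of other lists, 6 genes the study names, and up to 5 genes by smallest p in input and in the interaction. Snap25, Vsnl1 and Kalrn were named after their values were seen, and some genes that met these rules are not reported here. The groups compared, the gene lists and the rules were chosen with earlier results of these data known. Promoter windows and gene positions are from RefSeq (GRCm38.p6), and 14 of 64 activity-regulated genes had no window. Tables and plots were made with Python 3.11.15, pandas 2.3.3, scipy 1.17.1 and matplotlib 3.10.9.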

Additional observations from a re-analysis of the deposited data

Results flagged for a closer look

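In 126 groups of 4 TRAP libraries, 2 for each of 60 genes and of 3 measures of the libraries, 7 held 1 library whose gap to its nearest neighbor passed the 95% critical value of Dixon's ratio of gap to range, and chance gives such a gap in about 1 of 20 groups. In Sh + Flx anxious mice, the library far from the rest was the lowest for S100a10 (65.0 CPM, the others 72.3 or more) and for Gabbr1 (172 CPM). It was the highest for Per1 (38.5 CPM), Calm2 (7221 CPM), Rcan1, an inhibitor of calcineurin (60.9 CPM), and Gabbr2, the partner subunit of Gabbr1 (168 CPM). In Sh + Flx mice it was the highest for Olfm2, which encodes a secreted olfactomedin protein (41.7 CPM, the others 28.7 or less). The libraries of the Nr4a genes and Fosl2 in Sh + Flx mice were not among these, since 2 of the 4 stood apart together.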

How the results depend on the processing

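No gene was called in TRAP mRNA by edgeR with other size factors, with no filter or a filter of 1 CPM in 4 libraries, with all TRAP groups in the fit, with replicates 1 and 4 and replicates 2 and 3 summed, or without any single library. DESeq2 called 31. Deviations from the group mean correlated weakly between Sh + Flx anxious and Sh + Flx libraries of the same number (r of 0.104, 0.05, 0.076 and 0.076 over genes). Other pairs ranged from -0.071 to 0.063. Each Sh + Flx replicate correlated best with the anxious replicate of its number, although anxious replicate 2 correlated best with Sh + Flx replicate 3 (0.063). Whether the numbers pair the samples was not tested. With the replicate number as a block, 10 genes were called, among them Nr4a1, Nr4a3, Maff, Fosb, Errfi1, Calm2, Tmcc3 and Emd. With replicates 1 and 4 against 2 and 3 as a pair factor, 11 were called, 1 higher and 10 lower, again with Nr4a1, Nr4a3, Maff and Fosb. The causes of these differences were not tested. In input, calls numbered 34, against 120 with DESeq2, 9 with the replicate block and 9 to 25 without single libraries. The pair as a factor in input was added after seeing the data and gave 42. The input call of Nr4a1 was lost with the replicate block (edgeR adjusted p = 0.0748), and those of Chga and Cnp too (both 0.158), whereas those of Fosl2, Neat1 and Mobp held under every alternative. For the difference between fractions, DESeq2 called 5 genes, and edgeR 0 to 1 without single libraries, the 1 without Sh + Flx replicate 4.

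Of 1019 log2 fold changes of 60 genes in TRAP mRNA under 17 alternatives, 964 kept their direction without a call, 29 kept it with a call and 26 reversed, all in 8 genes. With the replicate block and with the pair factor, the log2 fold change was -0.0015 and -0.0031 for Egr1, 0.0057 and 0.0048 for Egr3, -0.0451 and -0.0418 for Btg2, and -0.0134 and -0.0174 for Dusp1. Without single libraries it ranged from -0.11 to 0.27 for Egr1, -0.70 to 0.0232 for Egr2, -0.14 to 0.0816 for Egr3, -1.12 to 0.21 for Npas4, -0.21 to 0.17 for Arc, -0.18 to 0.39 for Btg2, -0.15 to 0.24 for Dusp1 and -0.39 to 0.0535 for Dusp6.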

Other observations

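In input, the smallest p belonged to Neat1, a long noncoding RNA that builds nuclear paraspeckles, at 54.1, 51.1, 51.0 and 46.9 CPM in Sh + Flx anxious mice, against 76.7, 84.4, 73.6 and 74.8 CPM in Sh + Flx mice (log2 fold change -0.61 ± 0.07, standard error, n = 4 each; edgeR adjusted p = 0.000357). Cacna1g, a T-type calcium channel, followed among the genes with higher values, at 33.8, 30.5, 28.6 and 33.2 CPM in input of Sh + Flx anxious mice, against 19.8, 20.8, 20.1 and 20.4 CPM in input of Sh + Flx mice (log2 fold change 0.64 ± 0.09; edgeR adjusted p = 0.0015). In TRAP mRNA the same genes overlapped between the groups. Neat1 stood at 32.1, 17.4, 22.4 and 18.9 CPM in Sh + Flx anxious mice, against 26.8, 36.8, 30.1 and 27.5 CPM in Sh + Flx mice, and Cacna1g at 29.2, 19.5, 22.7 and 28.3 CPM, against 18.8, 16.9, 24.3 and 19.1 CPM in Sh + Flx mice.

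For the difference between fractions, Grem1, an antagonist of bone morphogenetic proteins, shared the smallest p with Calm2 (4.34e-05, edgeR adjusted p = 0.234). It stood at 2.75, 2.94, 3.55 and 4.89 CPM in TRAP mRNA of Sh + Flx anxious mice, against 0.378, 1.3, 1.74 and 0.684 CPM in Sh + Flx mice. In input it stood at 0.495, 0.763, 0.842 and 0.473 CPM in Sh + Flx anxious mice, against 1.24, 1.19, 1.68 and 3.11 CPM in Sh + Flx mice. Grem1 was thus higher in every anxious TRAP pool and lower in every anxious input pool, and edgeR called neither.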
